A study of Mus musculus with 32 samples.

Results

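Within the E19.5 embryonic mouse thymus, 2 sorted populations that lack BCL11b were compared: the gate labelled BCL11b-ID2+ and the gate labelled BCL11b-ID2-. Each gate holds 3 libraries, numbered 1, 2 and 4, so the comparison uses 6 of the 32 libraries of the series. They were taken by their labels alone, and the genes followed are those with a normalised value of at least 10 in at least 3 of the 18 libraries of this stage. Both gates are DN1 cells, the earliest thymocyte stage without CD4 and CD8, from the 5x polychromILC reporter strain. The study profiled flow-sorted thymic populations by bulk RNA sequencing at E15.5 and E19.5. At E19.5 it also holds BCL11b+ID2+, BCL11b+ID2-, BCL11blowID2low and DN2 cells, with 3 libraries each, and these serve here as the context for the comparison. Nothing in the labels ties a library number to a separate embryo or litter. P-values therefore reflect only how far the libraries scatter, pooled over all 18 of this stage, and that scatter may be technical. The gates follow reporters, and the 2 are defined by ID2 with BCL11b negative in both. In sorted bulk RNA, fewer cells of a type and less RNA per cell cannot be told apart.

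ID2 is an inhibitor of E proteins, the helix-loop-helix factors that drive early lymphoid and T-lineage genes, and it is needed by natural killer (NK) cells and other innate lymphoid cells (ILCs). BCL11b is a zinc-finger factor that is switched on when thymocytes commit to the T lineage. Immature thymic cells without BCL11b can therefore include progenitors that have not committed and innate cells that left the T pathway, such as NK cells and type 1 ILCs, which kill through granzymes and perforin and secrete interferon-gamma.

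The 6 libraries held 4065398 to 9498133 reads, with 5682450 to 9498133 in the ID2-positive gate and 4065398 to 6155330 in the ID2-negative gate. Mitochondrial ribosomal RNA took 34.3% to 44.4% of reads in the ID2-positive libraries and 40.9% to 50.3% in the ID2-negative ones. Of the 26244 genes in the table, 13840 passed the filter on low values. Mrps34 and Mxra8 lay just outside it, each with 9.99 as the third-highest of the 18 values, and Col14a1 lay just inside it at 10. Within a gate, log2 values of library pairs correlated across genes at 0.874 to 0.909, a description since genes are not independent replicates. All levels below are DESeq-normalised read counts, which are not divided by gene length, so they are compared between libraries and not between genes. Differences are on the log2(value + 1) scale, ID2-positive minus ID2-negative, with the SE and adjusted p of a limma fit over all genes tested, and this scale understates the difference of genes with few reads.

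The genes behind the reporters were read first. Id2 stood at 1540.5, 1278 and 1494 in ID2-positive libraries 1, 2 and 4, and at 20.7, 24.6 and 18.2 in the ID2-negative libraries. The lowest ID2-positive library therefore lay far above the highest ID2-negative one, as the sort defines. Bcl11b was low in both gates, at 22.2, 39.2 and 18.9 against 17.1, 2.89 and 28.8, and the libraries overlapped. In the BCL11b+ID2- gate it was 2076, 1476 and 1469.

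Surface genes of the DN1 stage were checked against the label. Cd44, the adhesion receptor that marks DN1, was 2554, 2624 and 2240.3 in the ID2-positive gate and 1376, 1063 and 1279 in the ID2-negative gate, a log2 difference of 1.0 ± 0.22 (adjusted p = 0.002). Cd4 averaged 20.3 ± 10.8 against 28.5 ± 9.49 (SD, n = 3), and the libraries overlapped. Cd8a was at 49.7, 25.3 and 50.8 against 15.9, 18.1 and 20.2, a difference that did not pass the test (adjusted p = 0.2). Il2ra, which encodes CD25 and rises at DN2, was 247, 217 and 237 against 243, 398 and 434 (adjusted p = 0.26), while DN2 cells held 7149, 8762 and 7563. Kit, the stem cell factor receptor of early thymic progenitors, was lower in the ID2-positive gate, at 395, 172 and 233 against 1123, 1199 and 849.9, a log2 difference of -2.06 ± 0.28 (adjusted p = 1.5e-05). Cd24a, high on immature thymocytes, was 21.0, 77.5 and 49.6 against 1092, 1046 and 1166, and its libraries did not overlap (22.3-fold lower, adjusted p = 1.0e-07).

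Across the transcriptome, 2194 of 13840 genes (15.9%) differed at an adjusted p under 0.05. Of these, 1221 (8.82%) were higher and 973 (7.03%) were lower in the ID2-positive gate. These shares are the background for every count of called list or family members below. The 3 ID2-positive values lay outside the range of the 3 ID2-negative values for 5080 genes (36.7%), and 28 of the 2194 genes called were not among them. Differences of at least 5 on the log2 scale were found for 125 genes called higher, and of -5 or below for 106 called lower. The median difference over all genes tested was -0.01.

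**Figure D1:**
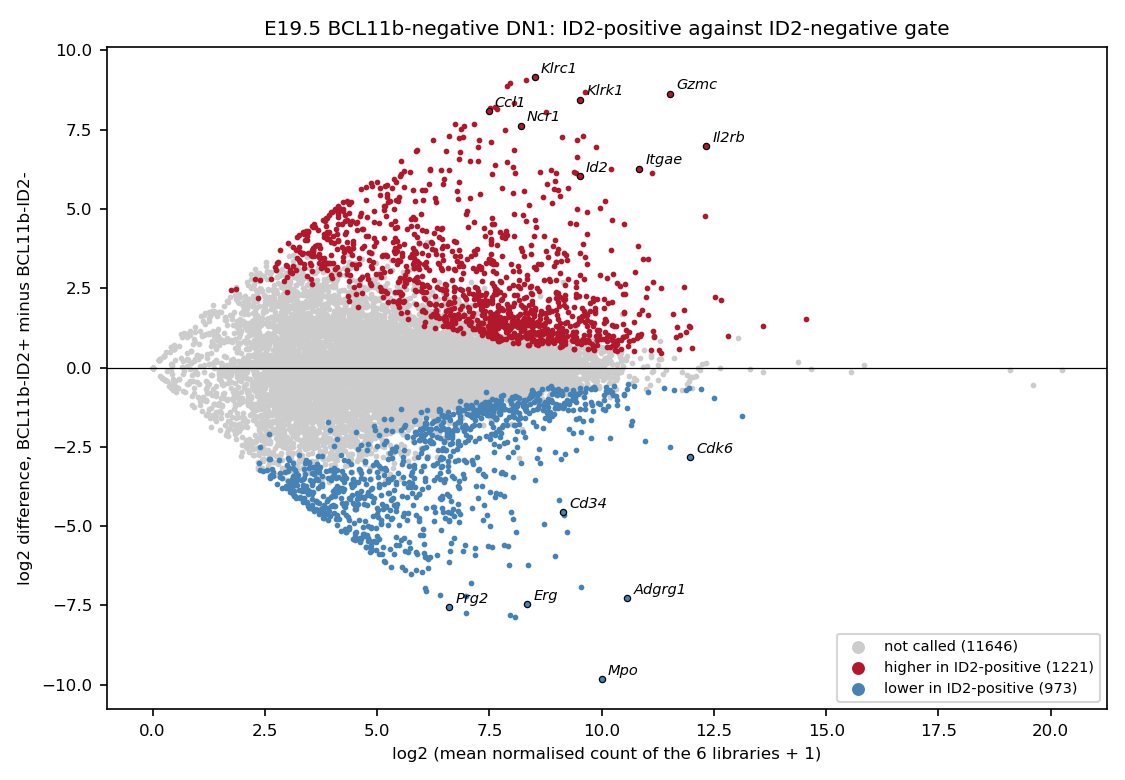
Each point is 1 of the 13840 genes tested. The x axis is log2 of the mean normalised count of the 6 libraries plus 1, and the y axis is the log2 difference, BCL11b-ID2+ minus BCL11b-ID2-. The 1221 genes called higher are red, the 973 called lower are blue, and Gzmc, Klrc1 and Mpo lie near the extremes.

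Genes were named by size, as the 15 largest differences in each direction among genes called. Left out beforehand were Id2 and Bcl11b, predicted or unconfirmed genes, pseudogenes, and mitochondrially encoded and ribosomal protein genes. Variable, diversity and joining segments of T-cell receptors and immunoglobulins were left out as well. Of the rest, a named gene had no overlap of libraries, and the gate with more reads averaged at least 100. The absence of overlap is therefore a condition of naming, and not further support for these genes. The 15 named in the ID2-positive direction were Klrc1, Mcpt2, Mcpt1, Mcpt4, Klrb1b, Gzmc, Klrk1, Arnt2, Cd101, Ccl1, Ccr8, Tpsb2, Ncr1, Samd3 and Cma1. Of the 15 in the other direction, 13 are described: Mpo, Angpt1, Igfbp4, Hnf4a, Prg2, Erg, Adgrg1, Nfe2, Ly6d, Cd33, Igkc, Pou2af1 and Ffar2. In the GRCm38 annotation, 8 of the 15 higher genes lie in 2 neighbourhoods. Klrc1, Klrb1b and Klrk1 sit between 128813706 and 129678973 on chromosome 6, where the killer lectin-like receptor genes cluster. Mcpt1, Mcpt2, Mcpt4, Cma1 and Gzmc sit between 55941451 and 56234656 on chromosome 14, a cluster of chymase and granzyme genes. Both clusters hold near-identical relatives, and the sources used here do not give the counting method, so reads could be split between relatives and the value of any 1 member is uncertain. The strand setting is not given either, so overlapping and antisense genes cannot be told apart. The 15 lower genes lie on 10 chromosomes, with no more than 3 on any of them.

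Promoters are shown for 4 genes, the 2 in each direction with the highest normalised counts among the named genes that have a promoter in the table, to let the stretch before their starts be read beside their values. This choice was made after the values were seen. Each runs from 250 bases before to 50 bases after the RefSeq start in GRCm38.p6, written 5' to 3' on the gene's strand. The annotation used for gene coordinates starts Adgrg1 at 94974751, before its window, and Mpo at 87793581, inside its window. The windows of these genes follow the RefSeq starts and not those. Capitals mark CAGCTG or CAGGTG, the boxes that E proteins bind, and AGGTGT, the core bound by T-box factors, on either strand. AGGTGT overlaps CAGGTG where the run reads CAGGTGT. The positions are chr14:56234608-56234907 on the minus strand for Gzmc, chr6:128826266-128826565 on the minus strand for Klrb1b, chr8:94976859-94977158 on the plus strand for Adgrg1 and chr11:87793534-87793833 on the plus strand for Mpo.
Gzmc: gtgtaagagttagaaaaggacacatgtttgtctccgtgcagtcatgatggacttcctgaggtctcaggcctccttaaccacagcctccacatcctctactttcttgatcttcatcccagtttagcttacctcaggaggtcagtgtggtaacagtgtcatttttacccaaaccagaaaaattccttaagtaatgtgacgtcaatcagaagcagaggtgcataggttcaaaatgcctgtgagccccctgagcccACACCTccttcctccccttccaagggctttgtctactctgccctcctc
Klrb1b: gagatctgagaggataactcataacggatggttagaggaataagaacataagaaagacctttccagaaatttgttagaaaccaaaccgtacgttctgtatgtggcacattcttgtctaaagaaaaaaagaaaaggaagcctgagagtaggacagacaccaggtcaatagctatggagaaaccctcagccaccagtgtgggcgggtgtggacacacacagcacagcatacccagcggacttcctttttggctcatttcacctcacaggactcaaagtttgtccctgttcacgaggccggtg
Adgrg1: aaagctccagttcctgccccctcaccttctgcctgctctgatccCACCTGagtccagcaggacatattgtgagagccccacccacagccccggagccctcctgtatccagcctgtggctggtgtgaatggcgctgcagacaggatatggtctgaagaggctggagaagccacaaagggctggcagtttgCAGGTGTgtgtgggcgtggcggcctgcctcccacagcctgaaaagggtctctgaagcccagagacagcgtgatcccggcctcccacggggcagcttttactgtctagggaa
Mpo: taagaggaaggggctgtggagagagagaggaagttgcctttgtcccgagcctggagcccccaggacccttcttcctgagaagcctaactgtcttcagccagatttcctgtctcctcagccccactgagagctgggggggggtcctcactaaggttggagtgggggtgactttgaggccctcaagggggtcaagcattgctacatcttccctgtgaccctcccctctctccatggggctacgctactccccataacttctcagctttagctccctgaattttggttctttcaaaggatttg

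The Gzmc window held 1 AGGTGT core, read on the opposite strand as ACACCT. The Adgrg1 window held 2 CAGGTG boxes, 1 of them within CAGGTGT, which is also a T-box core. Neither the Klrb1b nor the Mpo window held these letters. Over all 27025 promoters of the table, 16.1% held CAGCTG, 20% held CAGGTG and 13.9% held AGGTGT. These include promoters of genes not tested, so the shares are not a background for the named genes. Among the 15 genes named higher, 13 had a promoter in the table, of which 0 held CAGCTG, 1 held CAGGTG and 3 held AGGTGT. Among the 15 named lower, 8 had a promoter, and 1 held each motif. A match is a description of the letters in this window and not a site. Promoters were matched for 9262 of the 13840 genes tested (66.9%), so a comparison of motif shares between called and other genes would be void and is not given.

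NK and ILC1 receptor genes stood far higher in the ID2-positive gate. Of 22 listed, 20 were tested and 19 were called higher with none called lower, against 8.82% of all genes called higher. Their median log2 difference was 5.59, against -0.01 over all genes tested, and it was also 5.59 with the 2 members that had no read in the ID2-negative gate set to their bound. Summed over the list, the level was 23501 to 25904 in the ID2-positive libraries and 686 to 889 in the ID2-negative ones. Il12rb1 and Cd244 were not analysed here. The Klrc2 call was lost with both edgeR and DESeq2 on the recovered reads, and that of Klri1 with DESeq2.

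Ncr1 encodes NKp46, an activating receptor that defines NK cells and ILC1. It stood at 450.2, 597 and 698 across the ID2-positive gate, against 2.44, 1.45 and 1.92 without ID2, 301-fold higher (log2 7.62 ± 0.80, adjusted p = 3.5e-07). Klrb1c, which encodes the NK1.1 antigen, was 1148, 1062 and 1080.0 against 6.10, 4.34 and 8.64 (log2 7.26 ± 0.97, adjusted p = 8.8e-06). Every ID2-positive library of both genes lay above every ID2-negative one. The activating receptor gene Klrk1 (NKG2D) stood at 1272, 1423 and 1712 against 2.44, 1.45 and 7.68, a 381-fold difference (adjusted p = 2.8e-08). Klrc1 encodes NKG2A, an inhibitory receptor, and was 568, 703 and 903 in the ID2-positive gate, while the ID2-negative gate held 1 read in 3 libraries. Its log2 difference was 9.15 ± 0.95 (adjusted p = 2.9e-07), the largest of the 15 genes named higher. Klrd1 encodes CD94, the partner of NKG2A, and was 486, 465 and 854 against 3.66, 13.7 and 25 (log2 5.58 ± 0.88, adjusted p = 7.2e-05). Klrb1b, an inhibitory receptor of the NK1.1 family, was 1866, 1479 and 1373 against 9.76, 0.723 and 1.92, 380.4-fold higher (adjusted p = 6.0e-08). In all of these the libraries of the gates did not overlap. This was a condition of naming for Ncr1, Klrk1, Klrc1 and Klrb1b. Of all genes tested, 36.7% did not overlap, counting both directions.

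Receptors for the cytokines that sustain or activate NK cells were also higher. Il2rb, the beta chain shared by the IL-2 and IL-15 receptors, was 10214, 9933 and 10494 against 86.6, 37.6 and 157, 109-fold higher (log2 6.98 ± 0.37, adjusted p = 1.3e-11). Its ID2-positive libraries were close to each other, whereas the ID2-negative ones spread more widely without reaching them. Il18r1, a chain of the IL-18 receptor, was 1659.6, 1471 and 1605 against 78.1, 38.3 and 45.1 (log2 4.91 ± 0.40, adjusted p = 6.9e-09). Il12rb2, the signalling chain of the IL-12 receptor, was the list's exception, at 286, 167 and 269.9 against 133, 184 and 184, with overlapping libraries (adjusted p = 0.75). Co-stimulatory and adhesion receptors followed the main direction. Cd226 (DNAM-1) was 383, 365 and 422 against 1.22, 2.89 and 10.6 (log2 6.39 ± 0.72), Slamf7 was 1046, 1454 and 1474 against 17.1, 31.1 and 9.60 (log2 6.16 ± 0.66) and Cd96 was 1027, 836 and 1029 against 70.7, 45.6 and 111 (log2 3.74 ± 0.30). Klrg1, a marker of mature NK cells and ILC2, was sparse at 8.38, 1.54 and 24.2 against 0 in all 3 libraries, and its call (adjusted p = 0.032) was lost when any library but ID2-positive replicate 2 was left out.

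**Figure D2:**
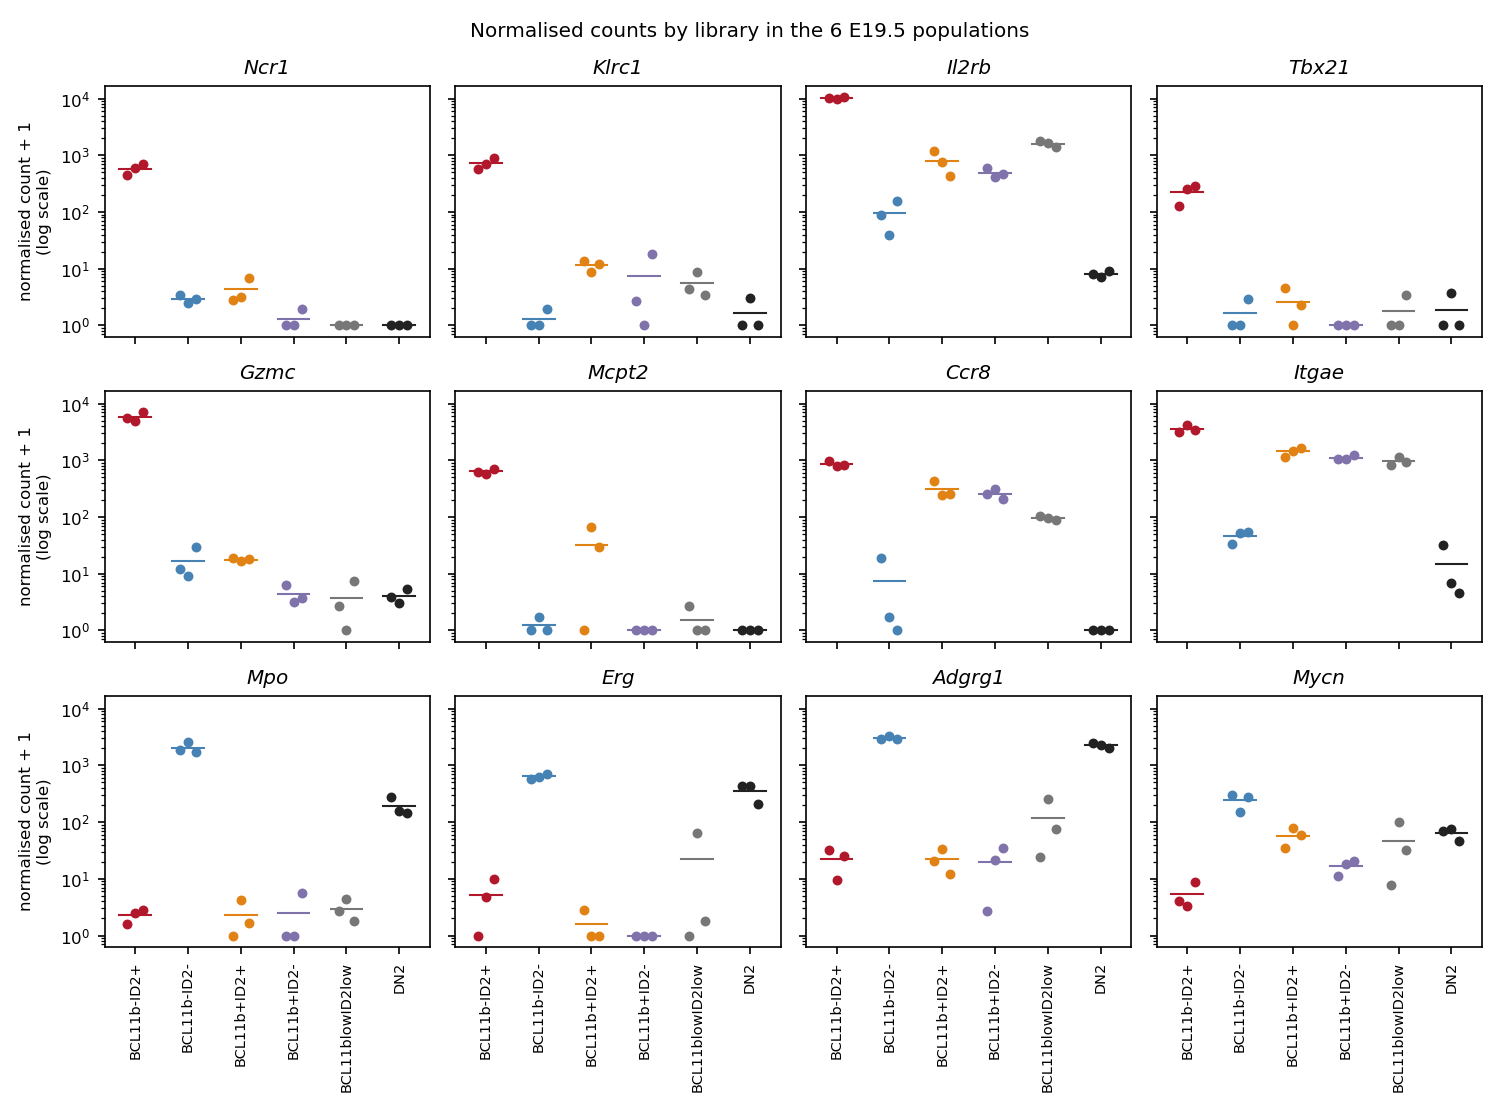
Normalised counts plus 1 on a log axis for 12 genes in the 6 E19.5 populations, with 1 point for each of the 3 libraries of a population and a line at their mean. Ncr1, Klrc1, Tbx21, Gzmc and Mcpt2 are highest in BCL11b-ID2+, and Mpo, Erg, Adgrg1 and Mycn are highest in BCL11b-ID2-.

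The transcription factors of these lineages were mostly higher as well. All 12 listed were tested, 9 were called higher and 1 lower, with a median log2 difference of 2.23. Tbx21 encodes T-bet, the T-box factor of NK cells and ILC1, and was 129, 257 and 287 against 0, 0 and 1.92, with 2 reads over the ID2-negative gate (log2 7.22 ± 0.94, adjusted p = 6.5e-06). Eomes, the related T-box factor of NK cells, was 48.5, 37.6 and 67.3 against 1.22, 0 and 0 (log2 5.28 ± 0.91, adjusted p = 2.0e-04). Zfp683, which encodes Hobit, was 246, 335 and 522 against 0, 7.23 and 0.960 (log2 7.12 ± 1.14, adjusted p = 9.3e-05). For these 3 genes no ID2-positive library fell to the level of an ID2-negative one. Nfil3, required for NK and ILC development, was 159.9, 94.4 and 92.1 against 6.10, 0 and 24.0 (log2 4.33 ± 0.94, adjusted p = 0.0021). Ets1, an ETS factor of lymphoid cells, was 1999.7, 2442 and 2092 against 121, 189 and 206, 12.7-fold higher (adjusted p = 1.8e-10). Runx3, a Runt factor of cytotoxic cells, was 1111, 1409 and 1009 against 427, 269 and 281 (log2 1.87 ± 0.36, adjusted p = 6.4e-04). Stat4, which transmits IL-12 signals, was 434, 310.2 and 456 against 200, 116 and 141 (log2 1.4 ± 0.34, adjusted p = 0.0049). The member called lower was Zeb2, a zinc-finger factor of late NK maturation and of myeloid cells, at 77.2, 73.7 and 29.5 against 495, 737 and 782 (log2 -3.55 ± 0.82, adjusted p = 0.0038). Tox and Irf8 did not pass, with log2 differences of 0.91 and -0.53. The calls of Prdm1, a repressor of effector lymphocytes, and of Ikzf2, the Ikaros family member Helios, were lost without some libraries. Leaving out replicate 2 of either gate was enough for both.

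Cytotoxic effectors and secreted factors formed the next group, with 12 of the 15 tested called higher and 0 lower (median log2 4.56). Granzyme genes encode the serine proteases that killer cells release. Gzmc was 5644, 5034 and 7045 against 11, 7.96 and 28.8, 371-fold higher (log2 8.63 ± 0.74, adjusted p = 1.5e-08). Gzma was 3913, 3308 and 5961 against 41.5, 65.1 and 80.7 (log2 6.12 ± 0.31, adjusted p = 1.3e-11), and Gzmb was 1015, 1093 and 1483 against 35.4, 127 and 25.9 (log2 4.56 ± 0.68, adjusted p = 4.0e-05). The gates did not overlap for any of the 3, which the naming rule required of Gzmc. Prf1, which encodes the pore-forming perforin, was 80.8, 121 and 83.3 against 1.22, 0 and 0 (log2 6.18 ± 1.19, adjusted p = 6.6e-04). Ctsw, a cathepsin of cytotoxic cells, was 2034, 2393 and 2519.6 against 28.1, 49.2 and 17.3, 73.5-fold higher (adjusted p = 1.6e-08). Nkg7, a granule membrane protein, was 2667, 2452 and 4059.6 against 371, 283 and 481 (log2 3.01 ± 0.33, adjusted p = 5.1e-07), so that the ID2-negative gate also held the transcript. Tnfsf10, the death ligand TRAIL, was 1876, 2138 and 2404 against 194, 367 and 298 (log2 2.94 ± 0.39, adjusted p = 8.3e-06). Fasl, another death ligand, overlapped between the gates at 123, 59.1 and 113 against 196, 67.3 and 129.7 (adjusted p = 0.83).

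Among cytokines and chemokines, Ifng, the interferon-gamma gene, was 120.3, 199 and 188 against 1.22, 0 and 3.84 (log2 6.23 ± 0.88, adjusted p = 1.9e-05). This call was lost when DESeq2 was run on the recovered reads. Xcl1, a chemokine that attracts cross-presenting dendritic cells, was 979.5, 1871 and 2755 against 7.32, 23.1 and 12.5 (log2 6.94 ± 0.98, adjusted p = 2.0e-05), and its ID2-positive libraries differed widely among themselves. Ccl5, a chemokine of cytotoxic lymphocytes, was 1428, 1357 and 1802 against 9.76, 16.6 and 3.84, 152-fold higher (adjusted p = 4.6e-07). Ccl1 was 222, 458 and 387 in the ID2-positive gate, with 1 read in the ID2-negative gate (log2 8.09 ± 0.84, adjusted p = 2.9e-07). CCR8 is the receptor for CCL1, and Ccr8 was 987, 785 and 818 against 18.3, 0.723 and 0, 136-fold higher (log2 8.06 ± 0.70, adjusted p = 1.9e-08). Tnf was higher at 166, 70.6 and 60.8 against 11, 17.4 and 9.60 (adjusted p = 0.028), a call lost without replicate 1 or 2 of the ID2-positive gate or replicate 1 or 4 of the ID2-negative gate. Ccl3 and Ccl4 did not pass, with log2 differences of 0.85 and 2.82.

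A set of genes named for mast cell granule proteases was among the largest differences. Mcpt1, Mcpt2, Mcpt4 and Cma1 encode chymases, and Tpsb2 encodes a tryptase. Mcpt2 was 633, 584 and 689.7 in the ID2-positive gate, with 1 read over the ID2-negative libraries (log2 9.05 ± 1.11, adjusted p = 3.0e-06). Mcpt1 was 457, 597 and 443 against 0 in all 3 libraries, at least 516-fold higher when 3 reads over the gate are taken as the limit of detection (adjusted p = 6.9e-07). Mcpt4 was 378, 544 and 507 against 0 in all 3 libraries, at least 492-fold higher on the same limit (adjusted p = 2.1e-06). These 3 genes were thus abundant in each ID2-positive library and at or near 0 in the other gate. Cma1 was 232, 253 and 205 against 0, 0 and 0.960 (log2 7.52 ± 0.88, adjusted p = 1.5e-06), and Tpsb2 was 225, 366 and 259 against 0, 1.45 and 0 (log2 7.69 ± 1.11, adjusted p = 2.3e-05). The Tpsb2 call was lost with DESeq2 on the recovered reads.

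Other mast cell and basophil genes went in both directions. Of 10 listed, which include Cma1 and Tpsb2, 7 were tested, 3 were called higher (Cma1, Tpsb2 and Mitf) and 1 lower (Mcpt8), and the list summed to 1160.3 to 1268 against 501 to 739. Cpa3, the mast cell carboxypeptidase, was 439, 333 and 403 against 352, 369 and 414, with overlapping libraries. Fcer1a, the alpha chain of the high-affinity IgE receptor, fell below the filter at 8.98, 0 and 6.50 against 7.32, 1.45 and 0. Ms4a2, its beta chain, was 5.39, 29.9 and 4.13 against 31.7, 37.6 and 20.2 (adjusted p = 0.26), and Kit was lower in the ID2-positive gate, as given above. Hdc, the histamine-forming enzyme, was 313, 129.8 and 234 against 34.2, 96.9 and 78.8 and did not pass (adjusted p = 0.29). Mcpt8, a basophil protease, was 2.99, 11.5 and 13 against 30.5, 83.9 and 44.2 (adjusted p = 0.048), a call lost without any 1 of the 6 libraries, with edgeR and DESeq2 on the recovered reads, with a pseudocount of 0.5 and with TMM scaling. Mitf, a transcription factor of mast cells, was 34.7, 62.2 and 7.68 against 2.44, 0 and 1.92 (adjusted p = 0.016), a call lost without ID2-positive replicate 1 or 2 or ID2-negative replicate 2. Tpsab1, the other tryptase, was below the filter at 6.59, 11.5 and 22.4 in the ID2-positive gate and 0 in the ID2-negative gate. The part of mast cells in the protease result was not tested.

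Of the other genes named higher, Arnt2, a helix-loop-helix PAS factor, was 341, 517 and 321 against 1.22, 0 and 0 (log2 8.20 ± 0.81, adjusted p = 1.5e-07). Cd101, a surface protein of the immunoglobulin superfamily, was 359, 362 and 363 against 0, 0 and 0.960 (log2 8.18 ± 0.91, adjusted p = 7.4e-07). Relative to their mean, its 3 ID2-positive values had the smallest spread among the 15 genes named higher. Samd3 was 228, 252 and 246 against 0, 0 and 0.960 (log2 7.60 ± 0.96, adjusted p = 4.7e-06). Each of these 3 genes had 1 read in the whole ID2-negative gate.

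Genes of homing and adhesion changed in both directions. Of 22 tested, 15 were called higher and 4 lower (median log2 2.45), and none of the 19 calls was lost without 1 library. Itgae, the alpha-E integrin chain CD103 that binds E-cadherin on epithelium, was 3143, 4206 and 3420.1 against 32.9, 52.1 and 53.8, 77.6-fold higher (log2 6.27 ± 0.43, adjusted p = 5.0e-10). Itga1, the CD49a chain of tissue-resident ILC1 and NK cells, was 1242, 1536 and 1379 against 9.76, 7.96 and 26.9 (log2 6.63 ± 0.82, adjusted p = 3.1e-06). Itga2, the CD49b chain of circulating NK cells, differed less, at 312, 267 and 278 against 40.2, 30.4 and 27.9 (log2 3.10 ± 0.54, adjusted p = 2.4e-04). Cxcr6, a chemokine receptor of ILC precursors and resident lymphocytes, was 475, 414 and 677 against 3.66, 2.17 and 4.80 (log2 6.86 ± 0.41, adjusted p = 8.9e-11). Cx3cr1, the fractalkine receptor, was 843, 925 and 988 against 11, 5.06 and 24.0 (log2 6.23 ± 1.06, adjusted p = 1.8e-04). In each of these the ID2-positive libraries lay above all ID2-negative ones.

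The homing genes called lower included Ccr9, Cxcr4 and Itga4. Ccr9, the receptor for the thymic chemokine CCL25, was 98.2, 17.7 and 72.0 against 259, 370.4 and 345 (log2 -2.65 ± 0.40, adjusted p = 3.8e-05). Cxcr4, the receptor for CXCL12, was 108, 75.2 and 66.7 against 559.8, 361 and 497 (log2 -2.50 ± 0.29, adjusted p = 1.6e-06). Itga4, the alpha-4 integrin chain, was 577, 699 and 709.8 against 3374, 3274 and 3296, with little spread in the ID2-negative gate (log2 -2.33 ± 0.20, adjusted p = 1.1e-08). Its partner Itgb7 moved the other way, at 1070.5, 1347 and 1145 against 134, 223 and 204 (log2 2.69 ± 0.37, adjusted p = 1.5e-05).

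The genes of innate lymphoid precursors were higher for 9 of 14 members and lower for 1, with a median log2 difference of 2.57. Zbtb16 encodes PLZF, the factor that marks committed ILC precursors, and was 86.2, 96.0 and 90.3 against 15.9, 5.06 and 45.1 (log2 2.45 ± 0.54, adjusted p = 0.0025). In the BCL11blowID2low gate it was higher than in either, at 581, 967 and 471. Il7r, the IL-7 receptor alpha chain, was 1759.6, 1288 and 1368 against 176, 96.2 and 208 (log2 3.25 ± 0.33, adjusted p = 1.9e-07). Gata3, needed by T cells and most ILCs, was 433, 484 and 402 against 106, 125 and 182 (log2 1.70 ± 0.24, adjusted p = 1.7e-05). Tcf7, which encodes TCF-1, a factor that acts early in both T cells and ILCs, was 1738, 1443 and 1220.0 against 1281, 939.7 and 829.8 and did not pass (adjusted p = 0.1). Pdcd1, the PD-1 receptor of ILC precursors, was near the floor in both gates, at 5.99, 4.61 and 7.09 against 12.2, 3.62 and 6.72. The Arg1 call was lost with edgeR on the recovered reads and without ID2-positive replicate 1 or 4 or ID2-negative replicate 1 or 2.

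Markers of ILC2 and type 3 ILCs were read next. For ILC2, 13 of 15 genes were tested, and 6 were called higher and 0 lower (median log2 1.74). Of these calls, 3 (Klrg1, Il13 and Arg1) were lost without some library. Rora, a nuclear receptor needed by ILC2, was 272, 396 and 279.9 against 14.6, 9.40 and 31.7 (log2 4.16 ± 0.40, adjusted p = 9.0e-08). Il1rl1, the IL-33 receptor that defines ILC2, was 111, 134 and 151 against 41.5, 71.6 and 21.1 (adjusted p = 0.11), while the BCL11b+ID2+ gate held 3187, 3755 and 3931. The BCL11b-negative gates did not overlap for Il1rl1. It was called higher in 5 alternatives, edgeR and DESeq2 on the recovered reads among them. Il5 had no read in either gate, and Areg was below the filter at 6.59, 6.14 and 3.54 in the ID2-positive libraries. For type 3 ILCs, 15 of 16 were tested, 5 called higher and 1 lower. Il22, Il17a and Il17f had no read in any of the 6 libraries. Ahr, the aryl hydrocarbon receptor, was 1472, 1592 and 1227 against 176, 54.3 and 91.2 (log2 3.88 ± 0.39, adjusted p = 1.9e-07), and Il1r1, an IL-1 receptor chain, was lower at 32.3, 13.1 and 9.45 against 233, 181 and 98.0 (log2 -3.25 ± 0.72, adjusted p = 0.0025). The Ltb call was lost without ID2-negative replicate 4.

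**Figure D3:**
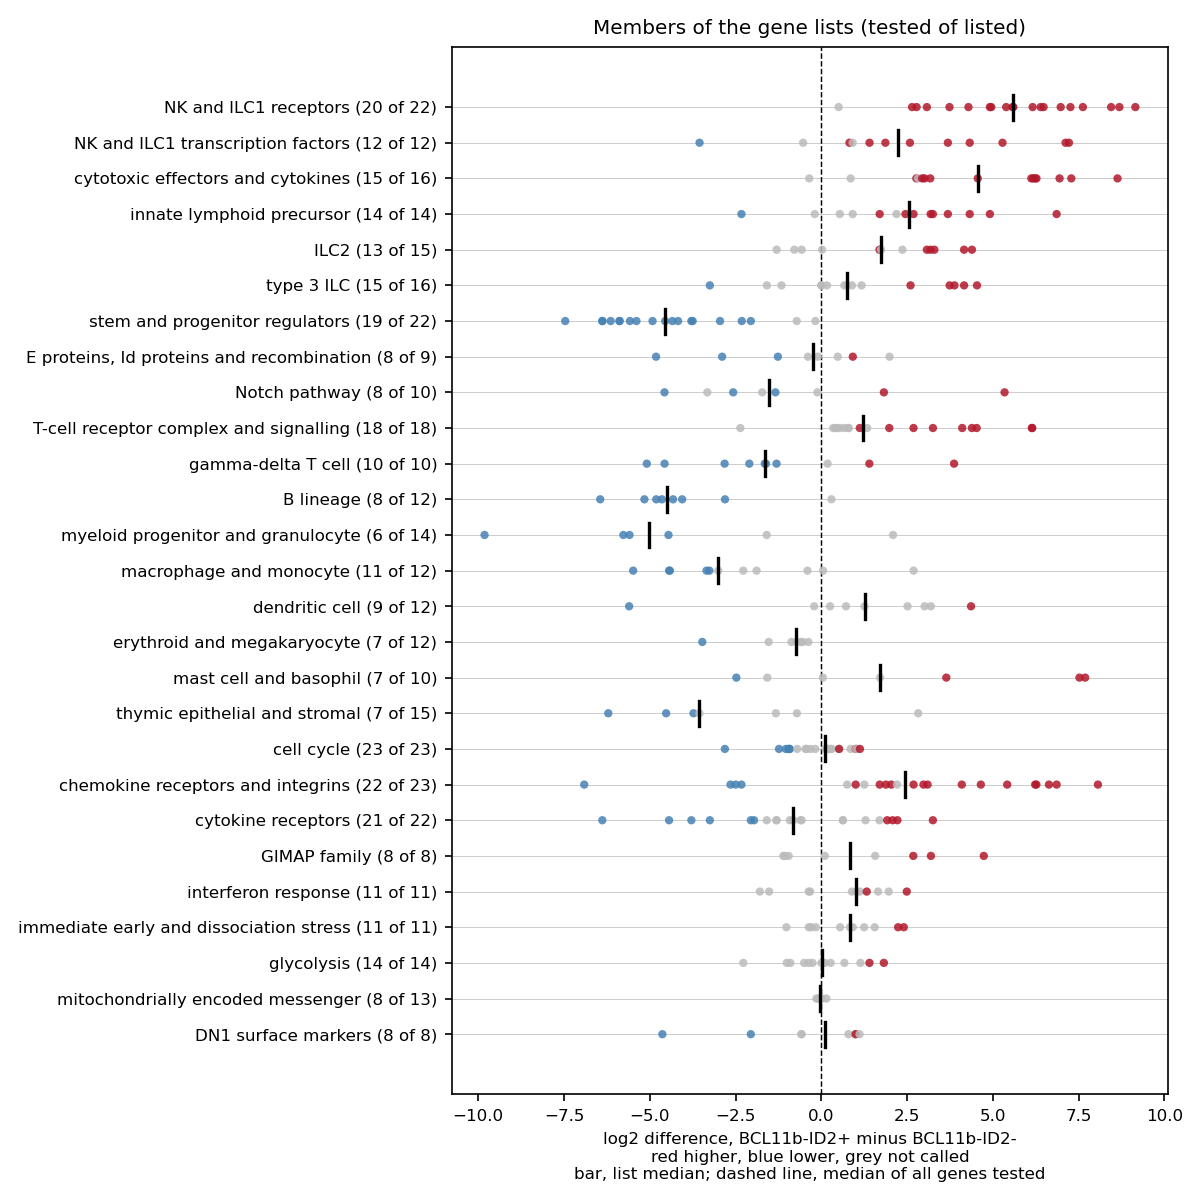
Log2 difference, BCL11b-ID2+ minus BCL11b-ID2-, of every tested member of 27 gene lists, with 1 point a gene. Red points were called higher, blue points lower and grey points were not called, and the black bar is the list's median. The NK and ILC1 receptors lie to the right of 0 and 17 of the 19 stem and progenitor regulators are blue.

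Parts of the T-cell receptor machinery were higher in the ID2-positive gate. Of 18 genes tested, 9 were called higher and 0 lower (median log2 1.23). Cd3g, a CD3 chain, was 1162, 1450.3 and 1433 against 24.4, 6.51 and 35.5, 60.9-fold higher (log2 6.14 ± 0.36, adjusted p = 6.3e-11). Cd247, the zeta chain that NK receptors also use, was 120.3, 168 and 178 against 17.1, 7.23 and 3.84 (log2 4.11 ± 0.38, adjusted p = 5.3e-08). Cd3e did not pass, at 172, 224 and 164 against 149, 60.0 and 135 (adjusted p = 0.064). The gates lay far apart for Cd3g and Cd247 and close together for Cd3e. Cd3d was higher at 113, 113 and 168 against 14.6, 75.2 and 28.8 (adjusted p = 0.0063), a call lost without ID2-negative replicate 1. Cd2, an adhesion receptor of T and NK cells, was 742, 767 and 834 against 8.54, 8.68 and 13.4 (log2 6.15 ± 0.50, adjusted p = 7.1e-09). Thy1 was 2362, 3063 and 2878 against 84.2, 193 and 102 (log2 4.53 ± 0.26, adjusted p = 5.7e-11), and the kinase gene Zap70 was 139, 149 and 164 against 7.32, 14.5 and 1.92 (log2 4.39 ± 0.50, adjusted p = 9.8e-07). Lck, another proximal kinase, was 489.8, 551 and 645 against 349, 482 and 502 and did not pass (adjusted p = 0.45). The call of Fyb, an adaptor, was lost without ID2-positive replicate 1 or 4 or ID2-negative replicate 1 or 2.

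Genes linked to gamma-delta T cells were mostly lower, with 7 of 10 called lower and 2 higher. Sox13, an early gamma-delta lineage factor, was 2.39, 1.54 and 2.95 against 217, 58.6 and 102 (log2 -5.09 ± 0.69, adjusted p = 1.1e-05), and Sox4 was 2.39, 15.4 and 7.09 against 191, 192 and 160.4 (log2 -4.57 ± 0.59, adjusted p = 6.7e-06). In the BCL11b+ID2- gate Sox13 was 3323, 2696 and 2559, above both BCL11b-negative gates. The gamma-chain constant genes went in different directions. Tcrg-C1 was 103, 125 and 99.2 against 251, 471 and 340.0 (log2 -1.65 ± 0.22, adjusted p = 6.9e-06), whereas Tcrg-C4 was 556, 627 and 706 against 72.0, 15.2 and 66.3 (log2 3.87 ± 0.54, adjusted p = 1.7e-05). These copies resemble each other and their reads may be split. Trdc, the delta-chain constant gene, was 92.2, 43.0 and 57.9 against 52.4, 45.6 and 65.3, with overlapping libraries. The calls of Blk, Tcrg-C2 and Etv5 were lost without some library, that of Etv5 without any 1 of the 6 and that of Blk without ID2-negative replicate 4. For Tcrg-C2 these were ID2-positive replicate 2 and ID2-negative replicates 1 and 4.

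In the opposite direction, the regulators of stem cells and multipotent progenitors were lower in the ID2-positive gate. Of 22 listed, 19 were tested, and 17 were called lower and 0 higher, against 7.03% of all genes called lower. Their median log2 difference was -4.55, and also -4.55 with Hoxa9, which had no read in the ID2-positive gate, at its bound. The list summed to 604 to 748 in the ID2-positive libraries and 6180.1 to 6917 in the ID2-negative ones. Hoxa10 and Cebpa were below the filter and Hhex was not analysed here.

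Erg, an ETS factor that maintains stem cells, was 0, 3.84 and 8.86 in the ID2-positive gate and 585, 629 and 712 in the ID2-negative gate, 152-fold lower (log2 -7.47 ± 1.13, adjusted p = 4.5e-05). Mef2c, a factor of lymphoid progenitors, was 22.8, 33.8 and 21.8 against 709.9, 964 and 763 (log2 -4.92 ± 0.74, adjusted p = 3.8e-05). Lyl1, a helix-loop-helix partner of E proteins, was 1.2, 7.68 and 0 against 172, 199 and 193 (log2 -6.14 ± 0.91, adjusted p = 3.4e-05), and Lmo2, its bridging cofactor, was 2.39, 0 and 0 against 46.3, 81.0 and 63.4 (log2 -5.39 ± 0.97, adjusted p = 3.5e-04). Hoxa9, a homeobox gene of progenitors, was 0 in all 3 libraries against 47.6, 37.6 and 108, at least 98.5-fold lower (adjusted p = 4.3e-05). No ID2-positive library of these 5 genes reached an ID2-negative one, which the naming rule required of Erg. Cd34, the progenitor sialomucin, was 55.1, 71.4 and 22.4 against 994, 1249 and 987 (log2 -4.55 ± 0.76, adjusted p = 1.5e-04). Bcl11a, the relative of Bcl11b in progenitors and B cells, was 44.3, 59.9 and 60.2 against 972, 1035 and 989 (log2 -4.18 ± 0.89, adjusted p = 0.0017). Mycn, a Myc family gene of progenitors, was 2.99, 2.3 and 7.68 against 295, 151 and 277 (log2 -5.58 ± 0.72, adjusted p = 6.5e-06). Flt3, the cytokine receptor of lymphoid-primed progenitors, was 11.4, 21.5 and 11.2 against 231, 166 and 230.5 (log2 -3.79 ± 0.97, adjusted p = 0.008), a call lost with DESeq2 on the recovered reads. Gfi1b, a zinc-finger repressor of erythroid and megakaryocytic cells, was 0.599, 0 and 0 against 98.8, 99.8 and 91.2 (log2 -6.38 ± 0.82, adjusted p = 5.3e-06). Meis1 and Gata2 did not pass, at log2 differences of -0.72 and -0.17.

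The call of Spi1, which encodes PU.1, a factor of myeloid and early lymphoid cells, was weak. It stood at 32.9, 14.6 and 54.3 against 287, 252 and 185 (log2 -2.95 ± 0.97, adjusted p = 0.041). The call was lost without ID2-positive replicate 1 or 2 or any ID2-negative library. Lin28b, a fetal RNA-binding protein, lost its call without ID2-positive replicate 4. Egfl7 lost its call with edgeR on the recovered reads, and without ID2-positive replicate 1 or 4 or ID2-negative replicate 1 or 2.

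Other genes named lower include surface and secreted products of progenitors. Adgrg1 encodes GPR56, an adhesion receptor of stem cells, and was 31.1, 8.45 and 24.2 against 2933, 3237 and 2908, 142-fold lower (log2 -7.26 ± 0.75, adjusted p = 2.9e-07). DN2 cells held a similar level, at 2526, 2262 and 2043. Angpt1, the angiopoietin ligand of TIE2, was 5.99, 0.768 and 0 against 554, 590.3 and 459 (log2 -7.85 ± 0.96, adjusted p = 2.9e-06). Igfbp4, a binding protein of insulin-like growth factors, was 2.99, 0 and 1.77 against 501, 487 and 495, 311-fold lower (log2 -7.80 ± 0.49, adjusted p = 1.5e-10). The ID2-negative libraries of Igfbp4 were almost equal. Nfe2, a leucine-zipper factor of megakaryocytes, was 1.80, 0 and 0.590 against 312, 240.2 and 192 (log2 -7.21 ± 0.85, adjusted p = 1.7e-06), and Hnf4a, a nuclear receptor best known in liver, was 0, 0 and 0.590 against 269.6, 269.8 and 207 (log2 -7.73 ± 1.12, adjusted p = 2.5e-05). Ly6d, a marker of lymphoid progenitors that lean to the B lineage, was 0 in all 3 libraries against 149, 152 and 102, at least 206-fold lower (adjusted p = 1.8e-05). Ffar2, a receptor of short-chain fatty acids, was 1.80, 0 and 0.590 against 87.8, 203 and 121 (log2 -6.31 ± 0.87, adjusted p = 1.5e-05). DN2 cells also held most of these transcripts. Their DN2 means were 209 for Angpt1, 237 for Igfbp4, 150 for Nfe2, 119 for Hnf4a, 147 for Ly6d and 20.3 for Ffar2.

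A myeloid gene gave the largest difference on the log2(value + 1) scale among the 30 genes named, although by the ratio of means Mcpt2 and Klrc1, each with 1 read in the ID2-negative gate, were larger. Mpo encodes myeloperoxidase, an early granule enzyme of granulocyte and monocyte progenitors, and was 0.599, 1.54 and 1.77 with ID2 and 1882, 2567 and 1704 without it. It was 1575-fold lower in the ID2-positive gate (log2 -9.82 ± 0.81, adjusted p = 8.9e-09). DN2 cells held 274, 158 and 145, an intermediate level. Of 14 genes of myeloid progenitors and granulocytes, 6 passed the filter and 4 were called lower. Elane, neutrophil elastase, was 0 in all 3 libraries against 24.4, 218 and 19.2, and Prtn3, proteinase 3, was 0, 0.768 and 0.590 against 37.8, 188 and 61.5. For both, ID2-negative replicate 2 was the highest library by far. The same library led for S100a8, a neutrophil protein below the filter, at 3.66, 103 and 26.9 in ID2-negative replicates 1, 2 and 4. Ms4a3, a granulocyte progenitor gene, was 0, 49.9 and 13.4 there, and Csf3r, the G-CSF receptor, was 2.44, 35.4 and 3.84. The list summed to 166 to 286 in the ID2-positive libraries and 2054 to 3521 in the ID2-negative ones, and 7 of its 14 members had no read in the ID2-positive gate. Cd33, a myeloid sialic acid-binding lectin, was 4.79, 0 and 1.2 against 318, 161 and 323 (log2 -6.78 ± 1.03, adjusted p = 4.6e-05). Prg2, the major basic protein of eosinophils, was 0 in all 3 libraries against 229, 219 and 128, at least 294-fold lower (adjusted p = 4.3e-07), and it had no read in any library of the other 4 populations. Its call, and those of Elane and Ctsg, were lost with DESeq2 on the recovered reads, and that of Ctsg also with edgeR.

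B-lineage genes were lower in the ID2-positive gate for 7 of the 8 tested of 12 listed. Pax5, the factor that commits B cells, was 0 in all 3 libraries against 34.2, 11.6 and 34.6, at least 41.0-fold lower (adjusted p = 3.4e-04), and Ebf1, which acts before it, was 0.599, 0.768 and 0.590 against 47.6, 42.7 and 46.1 (log2 -4.81 ± 0.92, adjusted p = 6.4e-04). Pou2af1, a B-cell coactivator, was 0, 0 and 1.77 against 150, 139.6 and 85.5 (log2 -6.45 ± 0.79, adjusted p = 2.8e-06), yet it was highest in the BCL11blowID2low gate, at 203, 312 and 224. Igkc, the kappa light-chain constant gene, was 0 in all 3 libraries against 171, 36.9 and 111, with a wide spread in the ID2-negative gate (at least 163-fold lower, adjusted p = 7.5e-06). Ighm, the mu heavy-chain gene, overlapped between the gates, at 1049, 829 and 822 against 848, 589 and 776 (adjusted p = 0.64). Pax5, Vpreb1, Vpreb2, Vpreb3, Igll1 and Blnk had no read in the ID2-positive gate. Summed, the list held 829 to 1080.1 against 971 to 1297, of which Ighm was the main part. The calls of Pax5, Cd79a and Vpreb3 were lost with DESeq2 on the recovered reads, and that of Cd79a also with edgeR.

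Markers of other cell types that a thymic sort could carry were read over whole lists. For macrophages and monocytes, 11 of 12 were tested, 5 were called lower and 0 higher, with sums of 227 to 423 against 381 to 578. Csf1r, the receptor that defines them, was 5.39, 27.6 and 1.2 against 127, 166 and 189 (log2 -4.44 ± 0.87, adjusted p = 7.7e-04), while Cd14 had no read in either gate. The C1qc call was lost with DESeq2 and with the replicate number as a block. The C1qb and C1qc calls were lost with edgeR, with a pseudocount of 8 and without several of the libraries, ID2-positive replicates 2 and 4 and ID2-negative replicates 2 and 4 for both, and ID2-negative replicate 1 for C1qc as well. Dendritic cell genes gave 1 call in each direction among 9 tested, Xcr1 higher and Siglech lower. Over all genes, 8.82% were called higher and 7.03% lower. The dendritic list summed to 1271 to 1737 against 751 to 884. Clec9a and Batf3 had no read in the ID2-negative gate, and Cd209a none in the ID2-positive gate. Erythroid and megakaryocyte genes summed to 36.0 to 253 against 308 to 461. Hbb-bt, a beta-globin, was the 1 call among 7 tested, at 32.9, 19.2 and 10 against 231, 165 and 267, and it was lost without any library other than ID2-positive replicate 1. Itga2b, the CD41 integrin chain of megakaryocytes, was 143, 4.61 and 0.590 in the ID2-positive libraries, so that replicate 1, which also had the highest sum of that gate, stood apart. Thymic epithelial and stromal genes summed to 196 to 327 against 1163 to 1492, with 3 of 7 called lower. Pdgfrb, whose values are given below, made up a large part of the ID2-negative sums.

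The collagen genes differed widely between the ID2-negative libraries, while Pdgfrb was high in all 3 of them. Pdgfrb, a growth factor receptor of mesenchyme, was 5.39, 8.45 and 9.45 against 721, 718 and 493 (log2 -6.21 ± 0.93, adjusted p = 4.0e-05), and DN2 cells held 457, 341 and 439. Col1a1, a fibrillar collagen, was 1.2, 0.768 and 0 against 141, 2.17 and 104. Col3a1, another fibrillar collagen, was 0 in all 3 libraries against 84.2, 0 and 97.0 and below the filter. ID2-negative replicate 2 was therefore near 0 for collagens where replicates 1 and 4 were not. The Col1a1 call (adjusted p = 0.022) was lost with DESeq2 and without ID2-positive replicate 2 or 4 or ID2-negative replicate 1 or 4, and the Psmb11 call was lost with edgeR and with DESeq2. The part of these cell types in the differences between the gates was not tested.

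E-protein and Notch genes, which act with ID2 on the same early decisions, changed in both directions. Of 8 E-protein, Id and recombination genes tested, 1 was called higher and 3 lower. Tcf12, which encodes HEB, was 648, 587 and 564 against 304, 313 and 333 (log2 0.92 ± 0.22, adjusted p = 0.0047), and Tcf3, which encodes E2A, was 128, 53.7 and 195 against 292, 291 and 224 (log2 -1.27 ± 0.37, adjusted p = 0.02). The Tcf3 call was lost with edgeR and without ID2-positive replicate 2 or ID2-negative replicate 1 or 2. Rag2, a recombinase subunit, was 16.2, 0 and 13.6 against 128, 217 and 199 (log2 -4.82 ± 0.75, adjusted p = 6.3e-05), while its partner Rag1 overlapped at 265, 147 and 89.8 against 97.6, 135 and 98.0 (adjusted p = 0.47). Id3, the relative of Id2, was 15, 26.1 and 17.7 against 6.10, 0 and 17.3 and did not pass (adjusted p = 0.13). Among 8 Notch pathway genes tested, 2 were called higher and 3 lower. Notch1, the receptor that drives T commitment, was 451, 779 and 635 against 1750.2, 1296 and 1595 (log2 -1.34 ± 0.27, adjusted p = 9.6e-04). Its target Hes1 was 24.5, 33.0 and 32.5 against 251, 181 and 132 (log2 -2.57 ± 0.62, adjusted p = 0.0054), and Notch3, a receptor gene that is itself a Notch target, was 3.59, 13.1 and 0 against 109, 103 and 74.9 (log2 -4.57 ± 0.78, adjusted p = 1.8e-04). Jag1, a Notch ligand, was higher at 228, 277 and 278 against 6.10, 2.89 and 8.64 (log2 5.34 ± 0.50, adjusted p = 7.1e-08), as was Rbpj, the DNA-binding factor of the pathway, at 561, 610.4 and 518 against 116, 211 and 161 (log2 1.82 ± 0.32, adjusted p = 3.0e-04).

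Among cytokine receptors, 4 of 21 were called higher and 6 lower, against 8.82% and 7.03% of all genes. Il2rg, the common gamma chain, was 1864, 1958 and 1972 against 421, 530.2 and 426 (log2 2.08 ± 0.17, adjusted p = 6.6e-09). Tgfbr2, a TGF-beta receptor, was 1099, 1111 and 951 against 239, 307 and 289 (log2 1.92 ± 0.21, adjusted p = 6.7e-07), and Ifngr1, which binds interferon-gamma, was 1139, 969 and 1293 against 242, 229 and 254 (log2 2.22 ± 0.23, adjusted p = 3.3e-07). Each of the 3 was separated between the gates with a narrow spread. Il21r was lower at 70.6, 20.7 and 52.0 against 135, 213 and 165 (adjusted p = 0.011), a call lost without replicate 2 of either gate.

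The cell cycle list held 3 genes called higher and 6 called lower among 23, with a median of 0.12. Over all genes these shares were 8.82% and 7.03%. Mki67, a marker of dividing cells, was 3178, 2445 and 3581 against 1548, 1269.5 and 1752 (log2 1.0 ± 0.18, adjusted p = 4.0e-04), and Ccnd2, a D-type cyclin, was 2089.5, 2472 and 1851 against 950.1, 1255 and 770.2 (log2 1.13 ± 0.23, adjusted p = 9.7e-04). Cdk6, the kinase that D-type cyclins activate, was 1146, 969.7 and 851 against 8279, 6934 and 5716, 7.05-fold lower (log2 -2.81 ± 0.21, adjusted p = 2.4e-09). Of the replication helicase genes, Mcm7 was 171, 138 and 156 against 350.1, 404 and 343 (log2 -1.23 ± 0.25, adjusted p = 0.001). Mcm2, Mcm3, Mcm5 and Mcm6 had log2 differences of -0.95, -0.92, -0.94 and -1.04. These 4 calls were lost without ID2-positive replicate 1 or ID2-negative replicate 2, and some without further libraries. Top2a lost its call without any 1 of the 6 libraries, and with edgeR and DESeq2. Mitotic genes such as Ccnb2 and Cdk1 overlapped between the gates, at 299, 314 and 287 against 252, 267 and 310.2 for Ccnb2.

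In each of the remaining lists most members were not called. Their counts stand beside the 8.82% of all genes called higher. GIMAP genes, GTPases of lymphocyte survival, were called higher for 3 of 8, among them Gimap4 at 470.0, 414 and 635 against 57.3, 44.1 and 60.5 (log2 3.19 ± 0.64, adjusted p = 9.3e-04), and the Gimap8 call was lost without ID2-positive replicate 1 or 2 or ID2-negative replicate 4. Interferon response genes were higher for 2 of 11, among them Irf7, an interferon regulatory factor, at 155, 217 and 197 against 56.1, 15.9 and 38.4 (adjusted p = 0.0041). Immediate early genes, which dissociation can induce, were higher for 2 of 11. These were Egr1, at 1039, 812 and 713 against 97.6, 391 and 148 (adjusted p = 0.0026), and Junb, whose call was lost without any library other than ID2-negative replicate 2. Fos overlapped at 23.4, 132 and 72.6 against 39.0, 183 and 44.2, with replicate 2 highest in both gates. Glycolysis genes were higher for 2 of 14, Pfkp at 314, 429 and 293 against 80.5, 124 and 87.4 and Hk1 at 190.4, 259 and 245 against 69.5, 81.7 and 112. The 8 mitochondrially encoded messengers tested had a median log2 difference of -0.03, and their sums overlapped, at 55446 to 72634 against 55778 to 73882.

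Set beside the other E19.5 populations, 749 of the 1221 genes called higher had their highest mean of the 6 populations in BCL11b-ID2+. A further 177 were highest in BCL11b+ID2+, 149 in BCL11blowID2low, 140 in BCL11b+ID2- and 6 in DN2. Of the 973 called lower, 487 were highest in BCL11b-ID2- and 299 in DN2, while BCL11b+ID2- held the top mean of 111, BCL11b+ID2+ of 48 and BCL11blowID2low of 28. All 15 genes named higher were highest in BCL11b-ID2+. Of the 15 named lower, 11 were highest in BCL11b-ID2-, 2 (Ly6d among them) in DN2, 1 (Igfbp4) in BCL11b+ID2- and 1 (Pou2af1) in BCL11blowID2low. These positions are descriptions, since the genes were chosen for a difference that involves the gate itself.

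**Figure D4:**
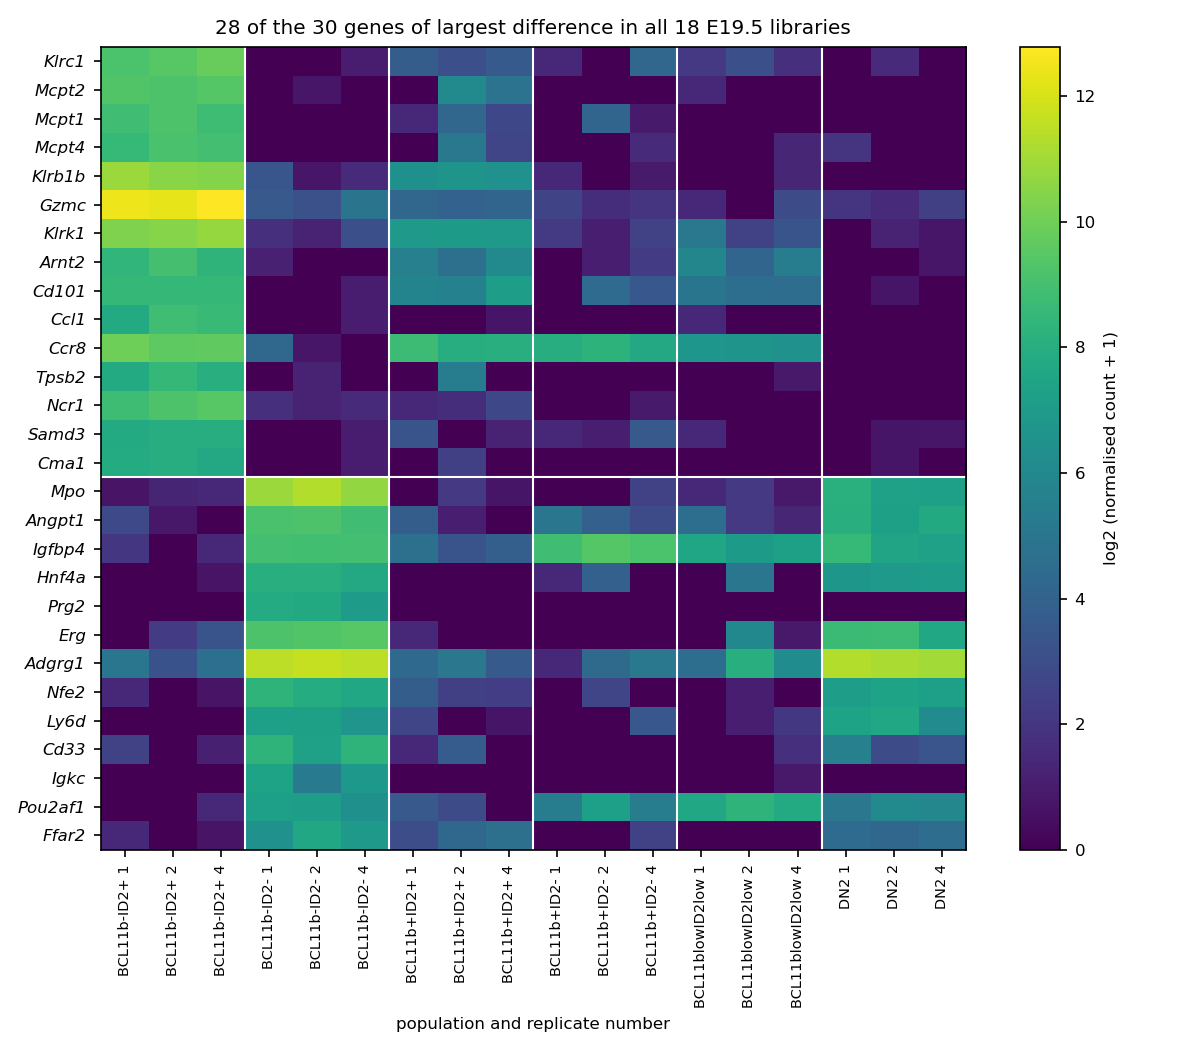
Log2 of the normalised count plus 1 for 28 of the 30 genes named, with 1 column for each of the 18 E19.5 libraries grouped by population. The upper block is bright in the 3 BCL11b-ID2+ columns, and the lower block is bright in the 3 BCL11b-ID2- columns and, for genes such as Adgrg1 and Erg, in DN2.

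Whether the ID2 difference was the same among BCL11b-positive cells was tested as an interaction: the difference between BCL11b-ID2+ and BCL11b-ID2- minus that between BCL11b+ID2+ and BCL11b+ID2-. It passed for 1284 of 13840 genes (9.28%), with 651 (4.7%) above 0 and 633 (4.57%) below 0. The interaction contains the comparison that chose the named genes, so that their interaction values are not independent of the choice. Ccr8 gave 0.26 among BCL11b-positive cells, where it was 438, 247 and 258 with ID2 and 249.9, 311 and 210.3 without, against 8.06 among BCL11b-negative cells (interaction 7.81 ± 0.99, adjusted p = 1.6e-05). Klrb1b gave log2 differences of 8.69 among BCL11b-negative and 5.70 among BCL11b-positive cells, where it was 85.5, 96.2 and 87.7 with ID2 and 1.74, 0 and 0.922 without, and its interaction did not pass (adjusted p = 0.11). An interaction that misses the threshold does not show the differences to be equal.

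Interaction genes were named from those that passed, with a mean of at least 100 in any gate of the interaction. The gene classes left out of naming above were left out here too. Under these limits, the 5 genes with the largest interaction above 0 were Gzma, Slc15a1, Pdzk1, Slc16a5 and Sox5. The Gzma differences had opposite signs. Among BCL11b-positive cells it was 71.2, 48.6 and 113 with ID2 and 5371, 4333 and 5200.3 without, a log2 difference of -6.06, against 6.12 among BCL11b-negative cells (interaction 12.18 ± 0.44, adjusted p = 8.8e-15). Every library of the BCL11b-ID2+ and BCL11b+ID2- gates thus lay above every library of the other 2 gates. Pdzk1, a scaffold protein of membrane transporters, was 166, 385 and 165 in BCL11b-ID2+ and at most 5.81 in any library of the other 5 populations (interaction 9.01 ± 1.23, adjusted p = 3.9e-05). Slc16a5, a monocarboxylate transporter, was 361, 386 and 398 in BCL11b+ID2- and at most 26.1 in any library of the other 3 gates (interaction 8.94 ± 1.11, adjusted p = 1.2e-05). DN2 cells, outside the interaction, held 33.9, 113.2 and 49.4 for Slc16a5. The peptide transporter gene Slc15a1 gave 9.22 ± 1.58 (adjusted p = 4.9e-04) and the Sox factor gene Sox5 gave 8.28 ± 1.65 (adjusted p = 0.0021), and both had their highest mean in BCL11b+ID2-.

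Under the same limits, the 5 with the largest interaction below 0 were Mrc1, Deptor, Csf1r, Ltb4r1 and Mpo. Mrc1, the mannose receptor of macrophages, was 0 in all 3 libraries against 22.0, 21.0 and 18.2 among BCL11b-negative cells, but 285, 109 and 222 with ID2 and 0, 4.29 and 0 without it among BCL11b-positive cells (interaction -11.20 ± 1.14, adjusted p = 9.2e-07). Csf1r was 217, 92.9 and 128 in BCL11b+ID2+ and 0, 3.21 and 0 in BCL11b+ID2- (interaction -10.86 ± 1.23, adjusted p = 3.6e-06). The ID2 differences of these 2 genes had opposite signs at the 2 BCL11b states, -4.42 and 6.78 for Mrc1 and -4.44 and 6.42 for Csf1r. The part of macrophages in this was not tested. Deptor, an inhibitor of the mTOR kinase, was 25.1, 38.4 and 1.77 against 549, 564 and 454 among BCL11b-negative cells and 97.9, 140.4 and 113 against 0, 2.14 and 1.84 among BCL11b-positive ones (interaction -11.01 ± 1.1, adjusted p = 6.9e-07). Ltb4r1, the receptor of leukotriene B4, was 340.1, 200.1 and 144 in BCL11b+ID2+ and 0 in every BCL11b-ID2+ library (interaction -10.79 ± 1.23, adjusted p = 3.7e-06). Mpo differed by 0.12 among BCL11b-positive cells, where it was near 0 in both gates (interaction -9.93 ± 1.15, adjusted p = 4.5e-06).

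**Figure D5:**
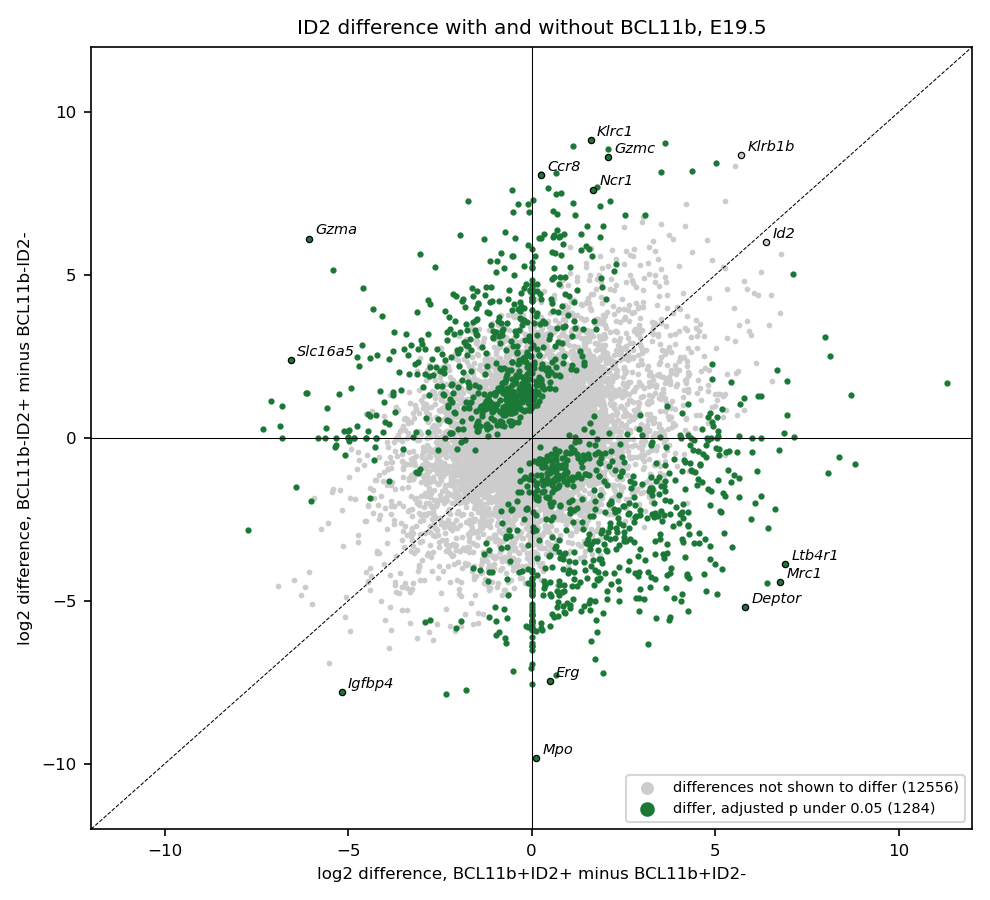
Log2 difference between ID2-positive and ID2-negative gates among BCL11b-positive cells (x axis) and BCL11b-negative cells (y axis) for 13840 genes, with the dashed line where they are equal. The 1284 genes whose 2 differences were shown to differ are green, with Gzma at the upper left and Mrc1, Deptor and Ltb4r1 at the lower right.

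Of the 306 listed genes that were tested, each counted once, 139 had an interaction that passed, against 9.28% of all genes tested. For the NK and ILC1 receptors these were 14 of 20, all above 0, and for the stem and progenitor regulators 13 of 19, all below 0. In the macrophage and monocyte list 9 of 11 were below 0, and in the T-cell receptor list 14 of 18 were above 0. These counts share the libraries of the first comparison. Il18rap, an IL-18 receptor chain whose interaction did not pass, gave 2.78 among BCL11b-negative cells and had means of 586 and 26.9 in BCL11b+ID2+ and BCL11b+ID2- (interaction adjusted p = 0.11). Il7r, of the precursor list, gave an interaction of -0.03 ± 0.46 (adjusted p = 0.98), with 5229, 3827 and 4333 in BCL11b+ID2+ against 816, 329 and 352 in BCL11b+ID2-.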

How the data were processed

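Flow-sorted E19.5 populations were sequenced after amplification with the Ovation RNA-seq System V2 and Ovation Ultralow library kits, per the labels' protocols. The submitters' processing notes name Trim Galore 0.50, STAR 2.6.0a, DESeq2 1.18.1 and GRCm38. The counter, annotation and strand setting are not given in the sources used here. The authors deposited 1 table of normalised signal per gene, gene counts divided by a size factor per library. Whole reads were recovered for 100.0% of values within 0.01 read. The E15.5 table, normalised separately, was not used.

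Values at least 10 in at least 3 of 18 libraries were kept. log2(value + 1) was fitted with limma 3.58.1 in R 4.3.3 (trend, robust) over all 18 libraries, 6 groups without a block, with Benjamini-Hochberg adjustment over 13840 genes. A call is an adjusted p under 0.05. The fit was also run on simulated data with the same dispersion for every gene and population, so unequal spread between populations was not probed. Folds are ratios of mean normalised counts. Against a gate with 0 reads a fold is a lower bound, at 3 reads over the gate, which covers counting error only. Named genes were the 15 largest differences in each direction among called genes without overlap, where the gate with more reads averaged at least 100. Interaction genes were the 5 largest in each direction among interactions with an adjusted p under 0.05. Their mean was at least 100 in BCL11b-ID2+, BCL11b-ID2-, BCL11b+ID2+ or BCL11b+ID2-. The gene classes left out of naming in the Results were set aside before both choices. Alternatives included edgeR 4.0.16 and DESeq2 1.42.0 on the recovered reads, which called 1933 and 2388 genes. The genes and lists were chosen with earlier results of these data known. A few named or listed genes are not reported here. Replicate numbers were checked for pairing. Gene symbols and coordinates come from a GRCm38 annotation, and 6 identifiers had no symbol.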

Additional observations from a re-analysis of the deposited data

Results flagged for a closer look

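The ID2 difference itself differed between the BCL11b-negative and BCL11b-positive states, by the interaction term of the limma fit, for 1284 of 13840 genes and for 139 of the listed genes. Interactions are in log2 units, and this test shares the BCL11b-negative libraries with the comparison that chose the named genes. Among genes named higher, the interaction was 7.55 for Klrc1, 3.43 for Klrk1 and 5.95 for Ncr1, the NK receptors. In the chymase and granzyme cluster it was 5.41 for Mcpt2, 7.83 for Mcpt1, 6.79 for Mcpt4, 6.71 for Cma1 and 6.55 for Gzmc, and the tryptase gene Tpsb2 gave 5.91. Ccl1 gave 7.85 and its receptor gene Ccr8 gave 7.81. Arnt2 gave 3.84, Cd101 gave 4.66 and Samd3 gave 8.12.

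Among genes named lower, the myeloid genes gave -9.93 for Mpo, -7.55 for Prg2, -8.51 for Cd33 and -9.49 for Ffar2. Genes of stem cells and megakaryocytes gave -7.96 for Erg, -7.93 for Adgrg1, -9.16 for Nfe2 and -5.52 for Angpt1. Ly6d gave -7.03, Igkc gave -6.49, Hnf4a gave -5.95 and Igfbp4 gave -2.62. Igfbp4 had a log2 ID2 difference of -5.18 among BCL11b-positive cells, so that both differences were negative.

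The genes named for the largest interactions above 0 gave 12.18 for Gzma, 9.22 for Slc15a1, 9.01 for Pdzk1, 8.94 for Slc16a5 and 8.28 for Sox5. Those below 0 gave -11.20 for Mrc1, -11.01 for Deptor, -10.86 for Csf1r and -10.79 for Ltb4r1.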

How the results depend on the processing

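The count of 2194 genes called ranged from 1613 to 1749 when 1 of the 6 libraries was left out, and the 1284 interactions from 949 to 1059. Over all alternatives the counts ran from 1613 to 3184 and from 949 to 1655, and, of the genes called in the gate comparison, the share that was higher from 53.9% to 59.5%, against 55.7%. No direction was reversed for a named gene or a called list member. Of the 30 genes named, 2 (Prg2 and Tpsb2) lost their call, both only with DESeq2 on the recovered reads, and 0 of the 10 interaction genes did. Of 165 called list members, 41 lost their call in at least 1 alternative, 30 of them without 1 library. Of 141 uncalled ones, 36 gained a call. The same-numbered libraries of the 2 gates deviated together at correlations of 0.0765, 0.0291 and 0.0258, too weak to pair them. Each ID2-positive library correlated best with its own number, a hint from the data and not the design. With the replicate number as a block, 2499 genes and 1546 interactions were called, and 1 called list member, C1qc, lost its call. A fit of only the 2 gates compared, without the spread of the other populations, called 2804 genes. Depth limits genes with few reads: a gate at 0 reads gives bounds only.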

Other observations

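Further gene families were read after their values had been seen, and are described without a test of the family. Some members, such as H2-Aa, H2-Eb1 and Lin28b, also belong to the lists above. The counts stand beside 8.82% of all genes called higher and 7.03% called lower. MHC class I genes, which present peptides to T cells and are read by NK receptors, were higher in the ID2-positive gate for 9 of 13 tested and lower for 0. H2-K1 was 3167, 3606 and 3301 against 631, 773 and 751 and H2-D1 was 4063, 4969.8 and 4113 against 798, 709.6 and 803. H2-Q6, a non-classical member, was 159, 327 and 183 against 0, 2.89 and 1.92, although H2-Q genes resemble each other and may share reads. Class II genes and their chaperones gave 0 of 6 higher and 2 lower, among them H2-DMa, a peptide-loading chaperone, at 15.6, 2.3 and 30.1 against 216, 263 and 294. The presenting chain H2-Eb1 was 94.0, 98.3 and 59.0 against 7.32, 6.51 and 16.3 (adjusted p = 0.099 with limma), without overlap, and was called higher in 3 alternatives. H2-Aa, another presenting chain, was 278, 256 and 316 against 132, 111 and 110.4 (adjusted p = 0.58 with limma), without overlap. The spread in that fit is shared over the 6 E19.5 populations. H2-Aa was 0, 5.36 and 60.0 in BCL11b+ID2- and 84.7, 0 and 54.9 in BCL11blowID2low. It was called higher in 1 alternative, which fitted only the 2 gates compared. The gates did not overlap for H2-K1, H2-D1, H2-Q6 or H2-DMa either. Of 6 S100a genes, calcium-binding proteins, 4 were higher, with S100a6 at 1462, 2094 and 2696 against 26.8, 75.2 and 71.1 and S100a4 at 470.0, 613 and 856 against 26.8, 7.96 and 23.0. Of 10 semaphorins, guidance proteins, 5 were higher and 1 lower, and Sema6d was 1238, 1445 and 1499 against 8.54, 2.17 and 28.8.

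Genes of fetal and progenitor growth went the other way. Of 7 Hmga, Igf2bp and Lin28 genes, 5 were lower and 0 higher. Hmga2, a chromatin protein of fetal stem cells, was 10.8, 0 and 28.3 against 292, 418 and 368. Myb, a factor of progenitors, was 36.5, 34.5 and 22.4 against 1176, 1316 and 996, and Runx1 was 307, 283 and 334 against 1358, 1485 and 1441, whereas Runx3 was higher, as given above. Myb and Runx1 had their highest means in DN2, at 1576 and 2170. Members of further families are given with the counts of their family. The Ikzf family held 2 higher and 0 lower of 4 tested. Ikzf3, the Ikaros family member Aiolos, was 1323, 1414 and 1205 against 42.7, 87.5 and 46.1. Gpr receptor genes were called higher for 9 of 26 and lower for 1, and 16 were not called. Gpr15, a homing receptor of the gut, was 272, 247 and 369 against 0, 10.1 and 1.92. Hmga2, Myb, Runx1, Ikzf3 and Gpr15 each separated the gates in every library, as did 36.7% of all genes tested, counting both directions. Chemokine ligand genes, some of them given above, were called higher for 6 of 15 and lower for 3. Cxcl12, the ligand of CXCR4, was 0, 0 and 0.590 against 40.2, 36.2 and 53.8, and Ccl22, a ligand of CCR4, was 289, 248 and 354 against 6.10, 0 and 0.960.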
